A study of Xenopus laevis with 2 samples.

Results

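Transporters of the cell membrane and of organelles were followed in *Xenopus laevis* animal caps, pieces of prospective ectoderm cut from embryos at stage 9. The members were the probes whose description on the array names a solute carrier family, an ATP-binding cassette (ABC) protein, an H+ transporting ATPase, an aquaporin or an amino acid transporter. This rule found 38 of 21495 gene probes, each with a gene name of its own, and texts on potassium channels and ATP synthase were left out. The rule also asked for Na+/K+ ATPases, but the descriptions of those probes on this array do not hold both terms, so it found 0 of them. They are given below as a list beside the members.

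The study asked which genes the transcription factor EBF3, of the EBF or COE family, regulates. The factor was expressed as hGR-Xebf3, joined to the part of a human glucocorticoid receptor (hGR) that binds hormone, so that dexamethasone (DEX) turns it on. The active EBF3 sample came from caps injected with 1 ng of hGR-Xebf3 mRNA and treated with 30 µM DEX for 4.5 hours, and the hGR sample from caps injected with 0.4 ng of hGR mRNA and given the same treatment. The reference on both arrays was untreated hGR-Xebf3 caps, and no Noggin was used to turn the caps neural. Each treated sample was labelled with Cy3 and hybridized together with the Cy5-labelled reference on 1 two-colour array. With 1 array per comparison and no dye swap, there were no replicates, so no difference was tested, and array, slide and group cannot be told apart. The hGR sample and its reference differed both in DEX and in the mRNA injected. In whole caps, fewer cells of a type and less RNA per cell cannot be told apart.

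Solute carriers move amino acids, ions, metals, nucleotides and metabolites across membranes without splitting ATP, whereas the vacuolar H+ ATPase spends ATP to pump protons into organelles or out of the cell. Aquaporins are channels for water, and some also pass glycerol. The epidermis of the *Xenopus* embryo contains ionocytes, cells rich in proton pumps and anion exchangers that need factors of the Foxi1 group for their formation.

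Of 11 epidermal marker genes, 6 had a probe, and all 6 were well above background in both references. Their summed signal was 687745 with active EBF3 against 1106230 in its reference, and 829155 against 816460 in hGR caps, while their median log2 ratios were -0.48 and -0.13. Both endodermal probes were below that level in all 4 channels, as were 2 of 4 neural probes. Of the 4 neural probes 1 was well above background in both references. The median log2 ratio of the 4, dim probes included, was 0.68 with active EBF3 and -0.32 in hGR caps. Their summed signal was 129613 against 110766 with active EBF3 and 85816 against 96173 in hGR caps. The muscle marker *myod1* had a signal of 68880 with active EBF3 against 645 in the reference, and the blood marker *tal1* 4589 against 88. In hGR caps these signals were 437 against 246 and 72 against 79. Of 7 listed genes of muscle and mesoderm 1 had a probe, and of 4 of blood 1. The references of *tal1*, unlike those of *myod1*, were not both well above background. The part of these cell types in the values below was not tested.

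All 38 transporter probes gave uniform, unsaturated spots on both arrays. Whether a spot was well above background was read from a flag that the image software sets. In both channels this held for 27 members (71.1%) with active EBF3 and 25 (65.8%) in hGR caps, against 50.2% and 48.8% of all gene probes. In total 24 members passed in all 4 channels, 8 in some, and 6 in none. The 6 without a measured level were *slc7a2*, *slc13a2*, *slc26a4*, *slc8a2*, *slc28a2* and MGC52635. Their ratios of processed signals enter the counts and medians over all 38 members and the plot of members by role, and no fold is given for them.

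With active EBF3, 0 of 38 transporters were at least 2-fold higher than the reference and 1 was at least 2-fold lower, the amino acid carrier *slc38a2*. Over all gene probes 2.11% were 2-fold higher and 2.03% 2-fold lower. In hGR caps 0 members were higher and 2 were lower, the iron exporter *slc40a1* and the aquaporin LOC398398, against 1.02% and 4.08% of all probes. The members' shares, 2.63% and 5.26% in either direction, were thus near those of the whole array, 4.14% and 5.09%. The median log2 ratio of the members was -0.11 with active EBF3 and -0.05 in hGR caps, beside -0.09 and -0.06 over all probes.

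With both channels well above background, 0 of 27 members were 2-fold higher and 0 lower with active EBF3, against 2.51% and 2.41% of such probes. In hGR caps 0 of 25 were higher and 1 was lower, *slc40a1*, against 0.864% and 1.44%. At 1.5-fold, 0 of the 38 members were higher and 4 lower with active EBF3 (background 4.74% and 6.63%), namely *slc38a2*, *slc35a5*, *atp6a1* and *slc13a2*. Of these *atp6a1* was measured in both channels, *slc38a2* and *slc35a5* were dim in the treated channel, and *slc13a2* in both. Both *slc13a2* signals were surrogate values, and with the deposited ratio its log2 ratio was 0, so its call rests on no measurement. In hGR caps 4 were higher and 2 lower at 1.5-fold (background 5.52% and 10.4%). The higher ones were the amino acid carriers LAT-1 (MGC68975), *slc7a3* and *slc7a2*, and MGC52635, the last 2 of which had no channel well above background.

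**Figure D1:**
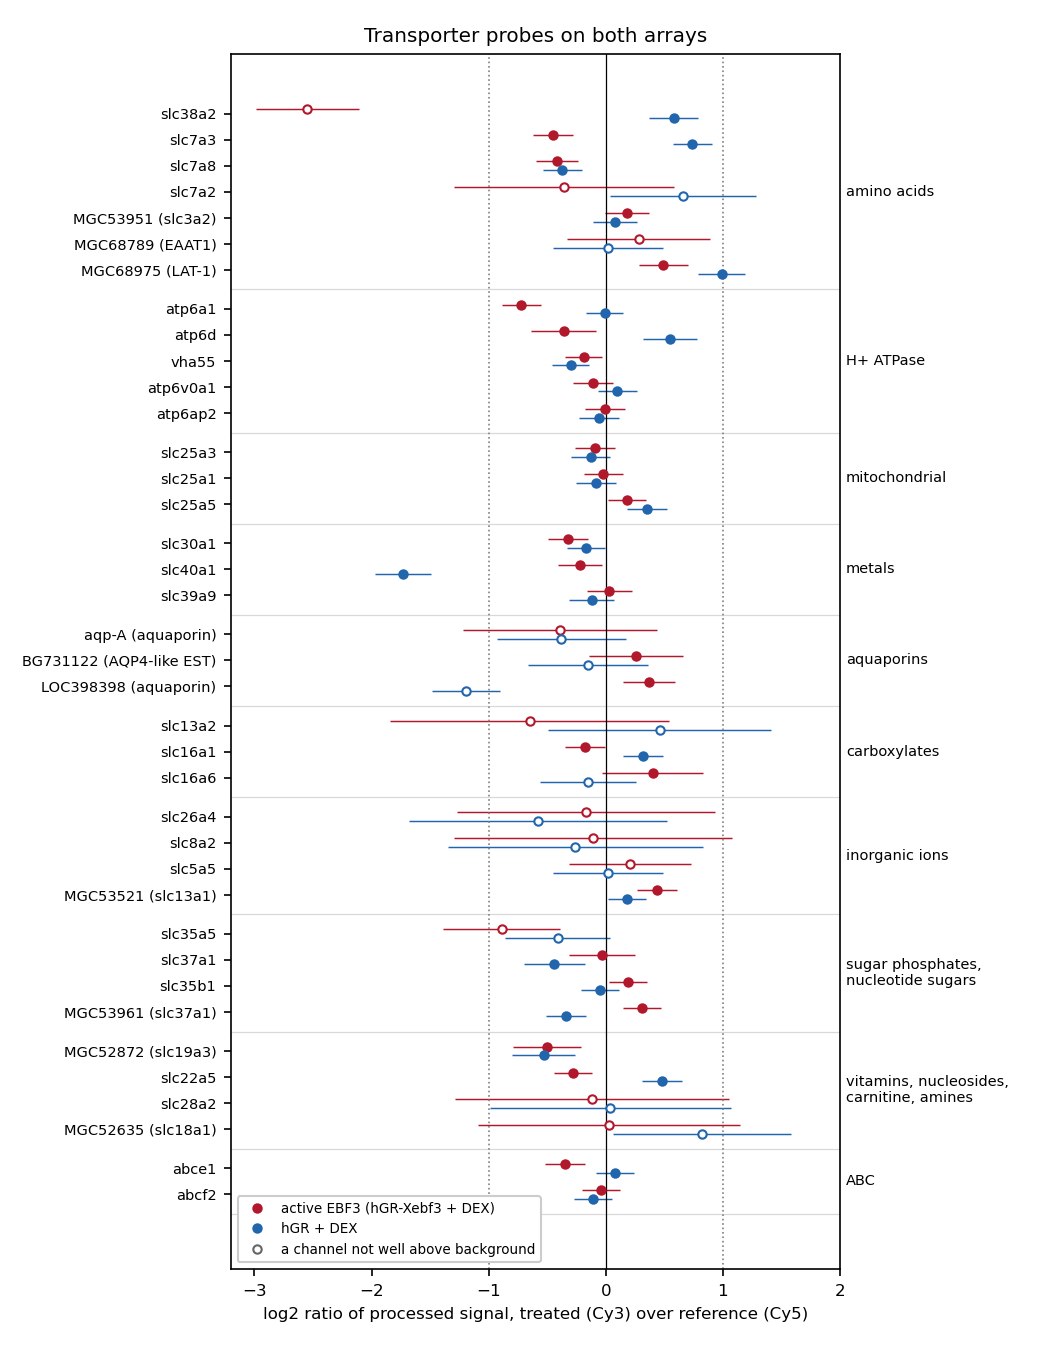
Log2 ratio of processed signal, treated (Cy3) over reference (Cy5), for each of the 38 transporter probes, grouped by what they carry. Red points are the active EBF3 array and blue points the hGR array, open points have a channel not well above background, bars are the software's spot error (1 array each, no replicates), and dotted lines mark 2-fold. The points past 2-fold are *slc38a2* at -2.55 with active EBF3, and *slc40a1* at -1.73 and LOC398398 at -1.19 in hGR caps.

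Over all members, dim ones included, the SD of the log2 ratio was the same on both arrays, at 0.52. Only the members measured in both channels spread less around the reference with active EBF3 than in hGR caps. The filter left out *slc38a2*, dim in 1 channel with active EBF3, and kept *slc40a1* in hGR caps. On the active EBF3 array the 27 log2 ratios ran from -0.72 to 0.49 with an SD of 0.32, where all such probes had an SD of 0.55. Of these 27 members, 1 lay outside 1.5-fold, *atp6a1*, against 11.1% of such probes. In hGR caps the 25 ratios ran from -1.73, that of *slc40a1*, to 0.99 with an SD of 0.52, against 0.39 for all such probes. How far this SD rests on *slc40a1* alone was not tested. In hGR caps 3 members lay outside 1.5-fold, *slc40a1*, LAT-1 and *slc7a3*, against 9.58%. The median size of the log2 ratio was larger in members than in all such probes on both arrays, at 0.26 against 0.17 and 0.30 against 0.19.

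The amino acid carriers were 7 probes, among them *slc38a2*, the member past 2-fold with active EBF3. In hGR caps 5 were measured in both channels, of which 4 were above the reference and 1 below, or 3 and 2 with the dye curve replaced by median centring. Of all probes measured there, 5405 of 10422 were above. With active EBF3, 2 of the 4 measured carriers were above the reference and 2 below. The probe for *slc38a2*, a sodium-coupled carrier of small neutral amino acids, had a signal of 110 with active EBF3 against 644 in its reference, and 777 in hGR caps against 521. Its low signal in the active EBF3 sample was not well above background, whereas the other 3 channels were. The log2 ratio in hGR caps was 0.58 ± 0.21 (spot error, 1 array), and that with active EBF3, -2.55 from the processed signals, rests on the dim spot and serves here only as a call. Set against the lowest signal well above background, spot error left out, *slc38a2* was lower by at least 3.10-fold with active EBF3 than in the reference. By the same rule it was lower by at least 4.57-fold than in hGR caps when the Cy3 channels were compared directly. With normexp background correction and an offset of 50 its ratio became -0.66 and the 2-fold call was lost.

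The cationic amino acid carrier *slc7a3*, which takes up arginine and lysine, had a signal of 21282 with active EBF3 against 28998, and of 44011 in hGR caps against 26315. The log2 ratios of -0.45 and 0.74 lay on opposite sides of the reference, 2.28-fold apart. After normalization between the arrays (Aquantile), the 2 reference signals differed by -0.04 on the log2 scale. Its relative *slc7a2* had no measured level.

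LAT-1 is a carrier of large neutral amino acids that works paired with the heavy chain encoded by *slc3a2*. Its probe had signals of 992 against 704 with active EBF3 and of 1118 against 565 in hGR caps. It was therefore higher than the reference on both arrays, by 1.41-fold and 1.98-fold, the second just short of the 2-fold limit. The heavy chain probe MGC53951, described as similar to *slc3a2*, was within 1.14-fold on both arrays (log2 0.18 and 0.08). The other light chain measured, *slc7a8*, was lower on both, with log2 ratios of -0.42 and -0.37. The glutamate carrier EAAT1 (MGC68789) was not well above background in either treated sample.

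All 5 H+ ATPase probes were measured in every channel, and all 5 were below the reference with active EBF3, 2 of them by little (-0.01 and -0.11). All 5 were also below it with normexp and loess and with median centring. Of all probes measured in both channels of that array, 5307 of 10690 were below. The median log2 ratio of the 5 was -0.19, and 0 of 5 reached 2-fold, beside 4.14% of all gene probes. A further subunit outside the rule, the 14 kD protein (MGC68786), was 2.24-fold higher with active EBF3, and it was picked after its value had been seen. The furthest was *atp6a1*, for the ATP-splitting A subunit, with a signal of 3906 against 6435 (log2 -0.72 ± 0.17, spot error). In hGR caps its signals were 5748 and 5792, a ratio of -0.01. The B subunit probe *vha55* had signals of 49894 against 57081 and, in hGR caps, 40286 against 49664 (log2 -0.19 and -0.30). The d1 subunit of the membrane sector, *atp6d*, lay below the reference with active EBF3, at 417 against 534, and above it in hGR caps, at 601 against 411. Its log2 ratios were -0.36 ± 0.28 and 0.55 ± 0.23 (spot error). The a1 subunit probe *atp6v0a1* had ratios of -0.11 and 0.10, and the accessory protein probe *atp6ap2* -0.01 and -0.06. In hGR caps 3 of the 5 were below the reference and 2 above, or 4 and 1 with median centring.

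**Figure D2:**
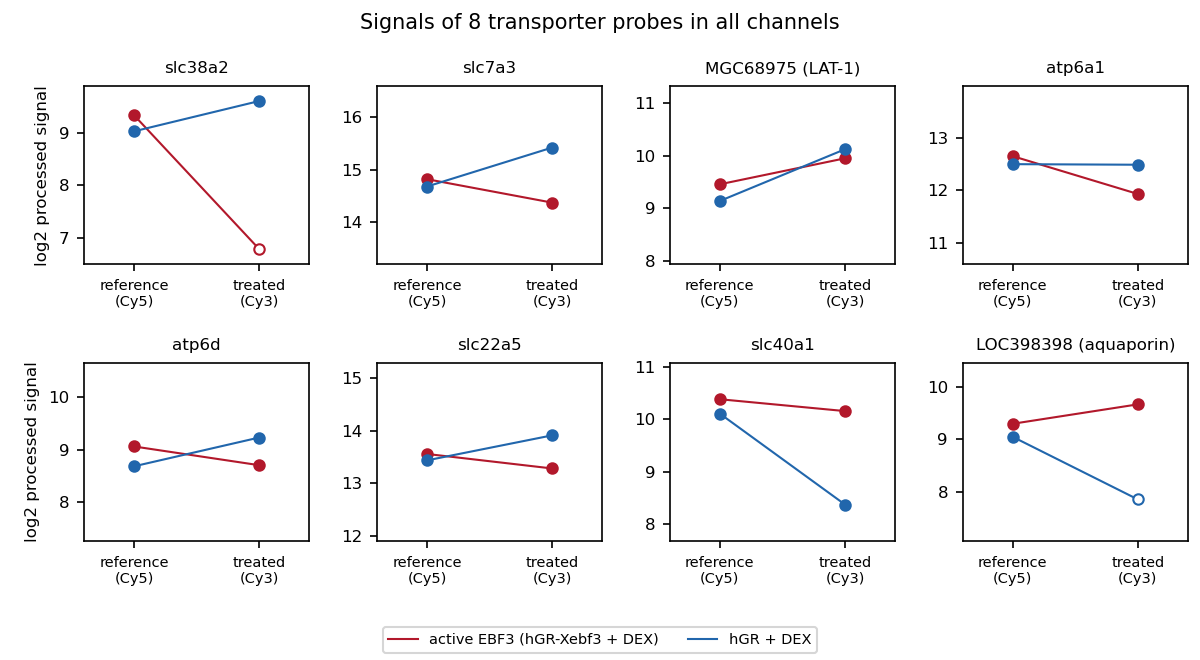
Log2 processed signal of 8 transporter probes in the reference (Cy5) and the treated sample (Cy3) of the active EBF3 array (red) and the hGR array (blue), with open points not well above background. Each panel spans the same log2 range, signals are scaled within and not between arrays, and levels are not comparable between probes. The lines part at the treated sample for *slc38a2*, *slc7a3*, *atp6a1*, *atp6d* and *slc22a5*, where hGR caps were higher, and for *slc40a1* and LOC398398, where active EBF3 caps were higher.

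Metal carriers held the lowest measured ratio of the members in hGR caps. The probe for *slc40a1*, or ferroportin, which exports iron from cells, had a signal of 1140 with active EBF3 against 1333 in the reference, and of 332 in hGR caps against 1102. Its level was thus 3.32-fold lower in hGR caps than in untreated hGR-Xebf3 caps, with a log2 ratio of -1.73 ± 0.24 (spot error), and 1.17-fold lower with active EBF3. All 4 channels were well above background. The 2 treated samples were 2.80-fold apart when their Cy3 signals were compared directly after Aquantile normalization between the arrays. With normexp and an offset of 50 the hGR ratio was -0.78, short of 2-fold. The zinc carriers stayed near the reference, *slc30a1*, which moves zinc out of the cytosol, at -0.32 and -0.17 and *slc39a9*, of the importer family, at 0.03 and -0.12.

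Aquaporins were 3 dim probes, none of them measured in all 4 channels. LOC398398 had a signal of 814 against 630 with active EBF3 and of 232 against 530 in hGR caps. The hGR value was not well above background, yet it exceeded the lowest signal that was, so no lower bound could be set. By the signals themselves the aquaporin was 2.29-fold lower there than in the reference. In the direct comparison of Cy3 signals, made after Aquantile normalization between the arrays, it was 2.89-fold lower than with active EBF3. The hGR log2 ratio of processed signals, -1.19, became -0.39 with normexp, which ended the 2-fold call. The other full-length aquaporin clone, *aqp-A*, was not well above background in either treated sample. The EST similar to human AQP4, BG731122, had a log2 ratio of 0.26 ± 0.40 (spot error) with active EBF3 and was dim in hGR caps.

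Mitochondrial carriers were measured in every channel and stayed within 1.28-fold of the reference. The adenine nucleotide carrier *slc25a5*, which exchanges ADP for ATP, had a signal of 232310 against 205398 with active EBF3 and of 238985 against 187437 in hGR caps. Its log2 ratio of 0.18 with active EBF3 turned to -0.03 with median centring. The citrate carrier *slc25a1* had ratios of -0.02 and -0.08, and the phosphate carrier *slc25a3* of -0.09 and -0.13.

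The 2 ABC members are not carriers in the strict sense, since proteins of these subfamilies have no membrane-spanning part. ABCE1, which separates ribosomal subunits in yeast and human cells, had a signal of 10805 against 13806 with active EBF3 and of 12123 against 11493 in hGR caps (log2 -0.35 and 0.08). For *abcf2*, of the subfamily of yeast Gcn20, the signals were 34727 against 35789 and 29300 against 31570.

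Carriers of carboxylates, sugar phosphates and nucleotide sugars gave 7 members. The lactate carrier *slc16a1* had signals of 3905 against 4430 and, in hGR caps, of 4522 against 3622. Its relative *slc16a6* had a log2 ratio of 0.40 ± 0.43 (spot error) with active EBF3. In hGR caps its ratio was -0.15 ± 0.41 (spot error), with the treated channel dim. The dicarboxylate carrier *slc13a2* had no measured level. The 3 members of the sugar group measured in hGR caps were all below the reference there, as were 5017 of all 10422 measured probes. The 3 were also below it with normexp and loess and with median centring. With active EBF3, 1 of these 3 was below and 2 were above. MGC53961, described as similar to the glycerol-3-phosphate carrier *slc37a1*, had a signal of 23004 against 18589 with active EBF3 and of 12505 against 15869 in hGR caps. The probe annotated as *slc37a1* itself had ratios of -0.03 and -0.44. The ratios of *slc35b1*, of the nucleotide sugar carrier family, were 0.19 and -0.05. A second probe matched to *slc35b1*, LOC398458, lay outside the rule and went the other way, at -0.49 and 0.18. The related *slc35a5*, dim in the treated channel of both arrays, was lower by at least 1.51-fold with active EBF3 and by at least 1.09-fold in hGR caps.

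Among carriers of inorganic ions, MGC53521, similar to the sulfate carrier *slc13a1*, was measured throughout, with signals of 6884 against 5085 and of 4959 against 4380. The iodide carrier *slc5a5* was not well above background in either treated sample. The anion exchanger pendrin (*slc26a4*) and the sodium-calcium exchanger *slc8a2* had no measured level in any channel. The carnitine carrier *slc22a5* had a signal of 9988 against 12094 with active EBF3 and of 15461 against 11112 in hGR caps, with log2 ratios of -0.28 and 0.48. MGC52872, similar to the thiamine carrier *slc19a3*, was lower than the reference on both arrays, at -0.50 and -0.53. The nucleoside carrier *slc28a2* and MGC52635, similar to a vesicular monoamine carrier, were too dim to measure.

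Untreated hGR-Xebf3 caps served as reference on both arrays, and this gave a background for 2 hybridizations. It is not known whether both references came from the same pool of RNA. If they did, their difference holds no variation between batches of caps. Signals were compared between the arrays after Aquantile normalization. Among the 29 members with both Cy5 signals well above background, the references differed by -0.30 to 0.37 on the log2 scale. The SD was 0.13, and 0 members were 1.5-fold apart, against 0.845% of all such probes. The Cy3 signals of the 24 members measured in all 4 channels had an SD of 0.55 between active EBF3 and hGR caps, and 6 of the 24 were at least 1.5-fold apart, against 15.9% of all probes with both Cy3 signals measured, whose SD was 0.63. The treated samples also differed in the injected mRNA, so this is no measure of a response to DEX.

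**Figure D3:**
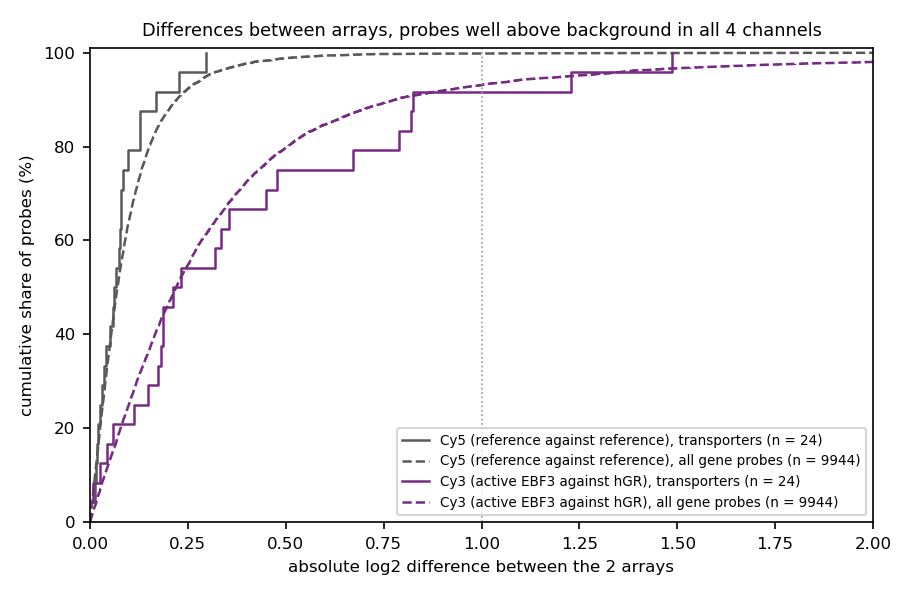
Cumulative share of probes (%) against the absolute log2 difference between the 2 arrays, for the reference channel (Cy5, grey) and the treated channel (Cy3, purple), with transporters as solid lines (24 probes) and all gene probes as dashed lines (9944 probes), all well above background in all 4 channels. Signals were Aquantile-normalized between the arrays, and the dotted line marks 2-fold. No transporter passed it in the reference channel, and *slc40a1* and *slc7a3* did in the treated channel.

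After subtraction of the hGR log2 ratio from the active EBF3 log2 ratio, 6 of 38 members (15.8%) were at least 2-fold apart, against 8.38% of all probes. On the higher side were 2 of them and on the lower side 4, where all probes gave 5.12% and 3.26%. The higher were *slc40a1* (log2 difference 1.51) and LOC398398, and the lower *slc7a3* (-1.19), *slc38a2*, *slc13a2* and *slc7a2*. LOC398398 and *slc38a2* were dim in 1 treated sample. Between the Aquantile-normalized Cy3 signals the first was 2.89-fold apart, with no lower bound, and the second has only the bound of 4.57-fold given above. For *slc13a2* and *slc7a2* no channel was well above background. Among the 24 members with all 4 channels measured, 2 (8.33%) remained, *slc40a1* and *slc7a3*, against 6.57% of such probes. At 1.5-fold, MGC53961 (0.65) joined *slc40a1* on the higher side, and *atp6d* (-0.90), *slc22a5* (-0.75) and *atp6a1* (-0.71) joined *slc7a3* on the lower, which made 2 higher and 4 lower of 24. All such probes gave 7.63% and 8.2%, or 15.8% in total.

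Genes around the transporters were also read. Of the 5 Na+/K+ pump subunit probes, 3 were measured on both arrays and 0 were 2-fold from either reference. Over all gene probes, 4.14% with active EBF3 and 5.09% in hGR caps were 2-fold from it. The beta subunit *atp1b1a* had signals of 10904 against 14460 with active EBF3 and of 18923 against 12768 in hGR caps (log2 -0.41 and 0.57). The other measured beta subunits were *atp1b2*, at -0.41 and 0.04, and *atpb-3*, above the reference on both arrays at 0.13 and 0.42. Of 3 pump regulators, the gamma subunit *fxyd2*, *nedd4* and a probe described as oxidative-stress responsive 1, 0 reached 2-fold, beside the same 4.14% and 5.09%. In the list of ionocyte and acid-base genes, 1 of 6 probes was 2-fold lower on each array, beside 2.03% and 4.08% of all gene probes. On both arrays it was *foxi1*. Its signal was 1728 with active EBF3 against 84292 in the reference, or 48.8-fold lower, and 21102 in hGR caps against 69647, or 3.30-fold lower. The carbonic anhydrase probe *car13* was lower on both arrays short of 2-fold, at -0.66 and -0.67. AY591750 was at -0.65 with active EBF3 and at -0.04 in hGR caps. The *rhbg* probe was at 0.09 with active EBF3 and was not well above background in hGR caps. The remaining probes of this list, BG731178 and MGC52685, were not well above background in any channel.

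Wider search terms (transporter, exchanger, cotransporter and the like) added 31 probes. Of these the cation-chloride cotransporter *slc12a8* (LOC446259) was 2.53-fold higher with active EBF3, with a signal of 8638 against 3416, and had a log2 ratio of -0.31 in hGR caps. TAP2, an ABC transporter, also passed 2-fold with active EBF3, but no channel was well above background. The pendrin-like anion exchanger LOC496380 was lower by at least 1.80-fold with active EBF3 and by at least 1.86-fold in hGR caps. A further 4 relatives were picked after their values had been seen. The water and glycerol channel *aqp3* was 2.81-fold higher with active EBF3, with a signal of 2994 against 1064, and the vacuolar ATPase subunit MGC68786 had 8708 against 3894. Both were within 2-fold of the reference in hGR caps (log2 0.08 and 0.42). The calcium pump probe *ca-p60a*, dim in both treated samples, was 2.77-fold lower with active EBF3 and lower by at least 3.34-fold in hGR caps. The H+/K+ pump probe ATP4A was 1.72-fold lower with active EBF3 (738 against 1267) and 2.15-fold higher in hGR caps (2203 against 1027).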

How the data were processed

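Two-colour Agilent arrays of animal caps were used, 1 per comparison, with groups taken from the treatment given per the labels. Per the file headers, the authors' spot intensity values came from Feature Extraction 8.1.1.1 at 10 µm per pixel, another version and resolution than the methods name. The deposited processed intensity was background-subtracted and LOWESS-normalized (smoothing factor 0.25), with surrogate values for spots at background. The deposited log10 ratio is Cy5 over Cy3. Its deposited error and p-value cover the spot only. The authors' series table equalled that log10 ratio with its sign turned (tolerance 1e-05, 100% of 16142 and 16921 values, median -0.001).

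The measure here was the log2 ratio of deposited processed intensity, Cy3 over Cy5, without controls and non-uniform spots (212 and 152 gene probes left out), with a 2-fold threshold after the methods of the study. No test was run, and the number of arrays limits the precision. For spots dim in 1 channel (not well above background), the fold is printed as a bound ("at least N-fold"), from Aquantile-normalized signals (limma 3.58.1), the brighter channel against the higher of the dim spot and the lowest signal well above background. Where the dim spot was the higher of these, no lower bound could be set, and the plain fold or log2 ratio is given. The bounds leave out spot error. Some dim spots exceeded the lowest signal well above background, so a bound is nominal and no strict limit on the fold. Comparisons of Cy3 with Cy3 and of Cy5 with Cy5 between the arrays used the same Aquantile-normalized signals. Dye bias in these bounds could not be checked, as no dyes were swapped. Calls past a threshold use the ratio of processed signals, also for dim spots. Levels are not compared between probes. The code for ratios and calls was run on simulated data with known folds, planted only in probes well above background in both channels. This checks the code and not the calls on dim spots.

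Names follow the array design, and 29 of 38 members matched RefSeq symbols (Xenopus_laevis_v10.1, names only). Sequences and genome positions were not used here. Members and lists were chosen with earlier results of these data known. Named by rule were members past 2-fold with the brighter channel well above background, the 5 brightest in the reference, the furthest measured member of each class, probes sharing their gene name, and listed ionocyte or pump genes past 2-fold. The other members were named to complete each group, and further listed probes beside them. The alternatives were normexp with an offset of 50 and loess, median centring of background-subtracted signals, the series table, the deposited ratio, filters on dim probes and on spot p-value, non-uniform spots retained, 1.5-fold and 3-fold, distinct gene names, wider terms, and Cy3 channels compared directly.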

Additional observations from a re-analysis of the deposited data

Results flagged for a closer look

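For 4 members the 2 treated samples lay on opposite sides of their reference, each by more than 0.33 on the log2 scale, which is 2 SDs of the difference between the 2 reference channels over all measured probes. This limit comes from measured Cy5 signals alone and is not the error of a Cy3 over Cy5 ratio or of a dim spot. With 1 array each, the difference between the groups was not tested. The amino acid carrier *slc38a2* had a log2 ratio of -2.55 with active EBF3 and of 0.58 in hGR caps, with the first signal not well above background. For *slc7a3* the ratios were -0.45 and 0.74, and for the proton pump subunit *atp6d* -0.36 and 0.55. The aquaporin LOC398398 went the other way, with 0.37 and -1.19, the second signal not well above background. With normexp and loess, *slc7a3* (-0.43 and 0.74) still lay beyond 0.33 on both sides, whereas *atp6d* (-0.16 and 0.24), *slc38a2* (0.29 in hGR caps) and LOC398398 (0.21 with active EBF3) did not. With median centring LOC398398 was at 0.32 with active EBF3.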

How the results depend on the processing

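The counts of transporters past 2-fold changed with the filter on dim probes and with normexp at an offset of 50. With active EBF3, the 1 lower member became 0 with normexp and loess and 0 with both channels well above background, 4 at 1.5-fold and 2 with wider terms, and the 0 higher members became 2 with wider terms, *slc12a8* and TAP2, the second with no channel well above background. In hGR caps, the 2 lower members became 0 with normexp and loess, 1 with both channels well above background and 1 at 3-fold. The 0 higher became 4 at 1.5-fold and 3 with median centring, where *slc13a2*, *slc26a4* and MGC52635, which had no channel well above background, passed. The 6 members 2-fold apart between the arrays became 1 with normexp and loess and 2 with all 4 channels well above background. They became 5 with the deposited ratio and 4 with Cy3 channels compared directly. With a spot p-value under 0.01 the medians were -0.58 over 4 members with active EBF3 and 0.53 over 6 in hGR caps. An offset of 50 in both channels draws ratios towards 0 by construction, most at low signal. It also acted on *slc40a1*, which was well above background in all 4 channels. The calls lost with normexp therefore cannot show what the background correction itself does. For the other settings the cause was not tested. Of the members' single log2 ratios, 27 of 76 moved by more than 0.17, the SD between the reference channels, with normexp, and 46 of 75 with median centring. With the deposited ratio 3 of 76 moved, and with the series table, which repeats that ratio, 0 of 70. No 2-fold call changed direction. No paired analysis was possible because a comparison rests on 1 array, with no test, and for that reason no replicate could be left out.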
